A study of Homo sapiens with 4 samples.

Results

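The genes described here are 9 protein-coding neighbours of MTDH in the 8q22 region of human chromosome 8, namely PTDSS1, SDC2, CPQ, TSPYL5, LAPTM4B, MATN2, RIDA, POP1 and NIPAL2. They were chosen by their position near MTDH and not by a measured value, though earlier results of these data were known. RPL30 and ERICH5, which lie between MATN2 and RIDA, are not on the list. Of the 9 genes, 8 are among the 23485 genes tested. The array names RIDA and CPQ by their older symbols, HRSP12 and PGCP. All 9 genes had a probe, 11 probes in all of the 34127 on the array, and 9 of these probes, covering 8 genes, were bright enough to test. SDC2 was not.

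MTDH encodes AEG-1, also called LYRIC, a protein that is often raised in carcinomas, and the 8q22 region is known for copy number gain in tumours, where neighbouring genes can be gained together with MTDH. A short hairpin RNA (shRNA) is processed into a small RNA that guides cleavage of a matching transcript, so it acts on mRNA and not on the locus. The neighbours have unrelated functions, which range from lipid synthesis and lysosomal membrane proteins to the extracellular matrix and RNA processing. The question set to these genes was whether the change in RNA between the cell lines was limited to MTDH or extended to the genes beside it.

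SAS is a cell line from a human tongue squamous cell carcinoma. SB cells (labelled B) carry the lentiviral pLKO.1-LYRIC shRNA-B construct, and SCt cells (labelled CTL) are controls, which the labels describe by the pLKO.1 vector alone and the study's methods by a scrambled shRNA. Both lines were selected as stable clones in 2 μg/ml puromycin over 14 days and were kept in the drug thereafter, and only 1 hairpin was arrayed, so an effect of AEG-1 and an effect of this hairpin or of the clones cannot be told apart. Labelled cDNA from 15 μg of total RNA of each line was hybridised together on 4 two-colour arrays, labelled as biological replicates, with SB in red and SCt in green every time. Because 0 of the arrays had the dyes swapped, a dye preference of a probe and a difference between the lines cannot be told apart either.

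Each value is a log2 ratio of SB over SCt, negative where the signal was lower in SB cells, and a gene was called changed where the adjusted p from limma over all tested probes was under 0.05. All 11 squamous epithelium markers examined, such as KRT5 and TP63, were above background in both lines on all 4 arrays. Of 6 fibroblast markers 3 were above background throughout and COL3A1 and LUM on no array, while all 5 leukocyte and all 4 endothelial markers also passed this lenient criterion, which 84.7% to 90.3% of spots met. COL3A1, LUM and PDGFRB were too dim to test, and none of the other markers was called by limma, where 3.51% of all genes were. An unadjusted limma p under 0.05 was found for 5 of the 11 squamous markers and for none of the others, beside 18.1% of all genes. Correlations of the log2 ratios between arrays, taken across probes, ran from 0.0473 (arrays 1 and 4) to 0.461.

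MTDH itself, the target of the hairpin, was lower in SB cells on every array. Its log2 ratios were −3.18, −3.01, −3.12 and −3.41 on arrays 1 to 4. In bulk RNA, fewer cells with the transcript and less of it per cell cannot be told apart. The ratios gave a mean of −3.18 ± 0.17 (SD, n = 4), and the SB signal was 11.0% of that in SCt cells, with a 95% interval of 9.93% to 12.2% (limma, adjusted p = 5.21e-10). On the log2 level scale the SB values lay between 10.12 and 10.66 and the SCt values between 13.30 and 13.83, so the lines did not overlap. No other gene of the 23485 had a larger change. Without limma's moderation of the variance the adjusted p of MTDH was 0.144, and no gene passed.

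None of the 8 measured neighbours was called changed, where 3.51% of all genes tested were (825 of 23485), 2.26% lower and 1.26% higher in SB cells. By probe, 0 of their 9 tested probes were called, beside 3.7% of all probes. At an unadjusted limma p under 0.05 there was 1 neighbour, RIDA, beside 18.1% of all genes. A test of the same values without limma's moderation called 0 neighbours and 0 genes of any kind at an adjusted p under 0.05. Before adjustment, that test gave 0 neighbours a p under 0.05. The share of all genes under that p was not counted, so this 0 cannot be read as particular to the neighbours. MTDH, the target of the hairpin, did fall under it. The mean log2 ratios of the neighbours ran from −0.21 for RIDA to 0.16 for MATN2, with a median of −0.06 beside 0.01 over all genes. The SD between arrays was between 0.09 and 0.26 for the 8 genes, against a median of 0.11 over all genes.

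The intervals reflect the spread between the 4 arrays and do not cover a compression of the ratios. For the spike-in controls the software fitted observed against expected log ratios with slopes of 0.796 to 0.841, so the ratios of these controls were smaller in size than those they were made with. The lowest bound among the neighbours was −0.39, for RIDA, a level of 76.3% of SCt, and the highest was 0.34, for MATN2, a level of 127%. Both MTDH and its neighbours were read on the same arrays, and on each of them the ratio of SB over SCt of MTDH was far below the lowest ratio of a neighbour. As ratios, not levels, MTDH was 8.21-fold below NIPAL2 on array 1, 7.41-fold below RIDA on array 2, 6.12-fold below PTDSS1 on array 3 and 7.24-fold below RIDA on array 4.

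**Figure D1:**
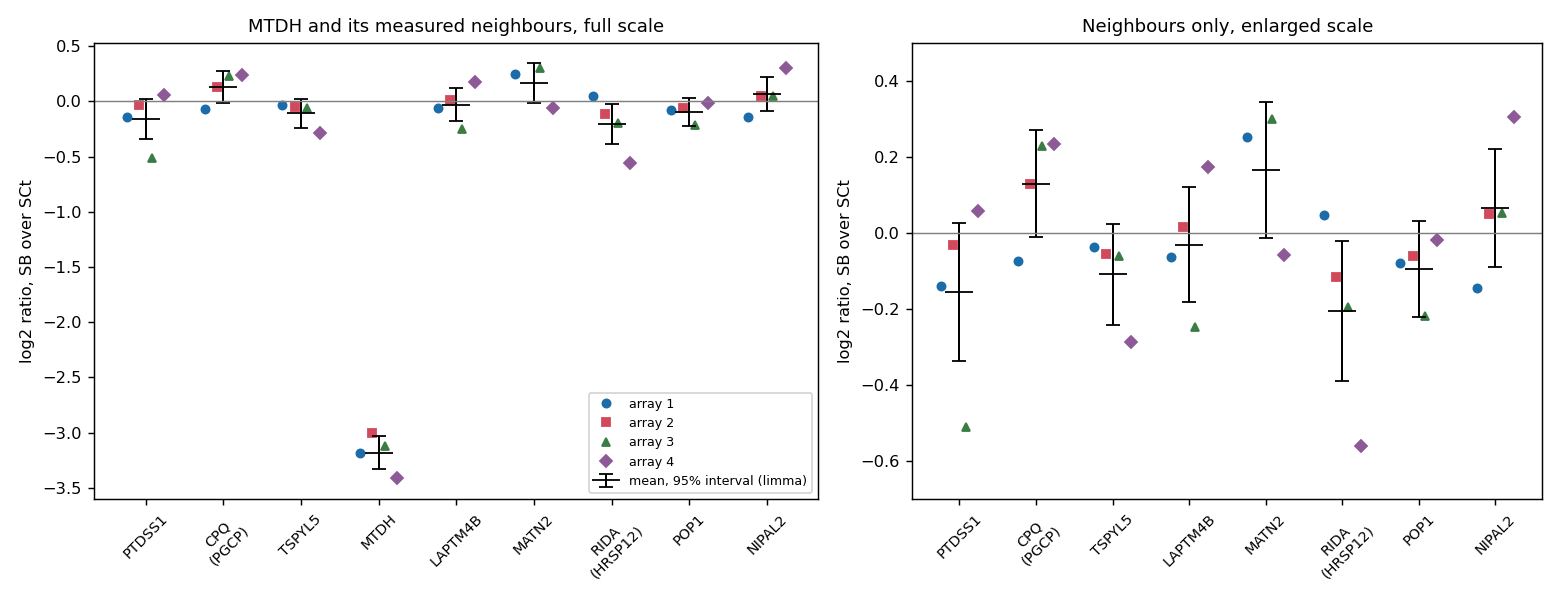
Log2 ratio of SB over SCt (vertical axes) for MTDH and its 8 measured neighbours in chromosomal order, at full scale on the left and without MTDH on an enlarged scale on the right. Points are the 4 arrays (array 2 has no MATN2 value), and bars show the mean with limma's 95% interval. MTDH sits between −3.41 and −3.01, and every value of a neighbour between −0.56 and 0.31.

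The members that act in lipid and membrane biology are PTDSS1, LAPTM4B and NIPAL2. PTDSS1 encodes phosphatidylserine synthase 1, which makes phosphatidylserine from phosphatidylcholine in the endoplasmic reticulum. Its log2 ratios were −0.14, −0.03, −0.51 and 0.06 on arrays 1 to 4. Array 3 stood lowest and array 4 was above 0, and the mean was −0.16 ± 0.25 (SD, n = 4; 95% interval −0.34 to 0.03; limma adjusted p = 0.344). The SB level was 89.8% of SCt, with bounds of 79.2% and 102%. Without array 3 the mean log2 ratio of PTDSS1 was −0.04.

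LAPTM4B, the gene next to MTDH towards higher coordinates, encodes a membrane protein of late endosomes and lysosomes that is itself often raised in carcinomas. It had the strongest signal of the neighbours over its local background, up to 764-fold. Its brighter probe gave −0.06, 0.01, −0.25 and 0.17, and the mean of −0.03 ± 0.17 (SD, n = 4; 95% interval −0.18 to 0.12) was larger in size than that of only 25.8% of genes (limma adjusted p = 0.857). Its second probe gave −0.07, 0.07, −0.20 and 0.46, with a mean of 0.06 ± 0.28 (SD, n = 4; limma adjusted p = 0.758). Both probes were lowest on array 3 and highest on array 4, and they differed from each other by −0.01, 0.05, 0.05 and 0.29 on arrays 1 to 4, so the probes had the same sign on each array and differed most on array 4, while their means, both near 0, differed in sign.

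NIPAL2 belongs to a family of membrane proteins related to magnesium transporters. Its values were −0.14, 0.05, 0.05 and 0.31, lowest on array 1 and highest on array 4. The mean was 0.07 ± 0.18 (SD, n = 4; 95% interval −0.09 to 0.22; limma adjusted p = 0.676), and the bounds of the SB level were 94.0% and 117% of SCt. Leaving out array 4 turned it to −0.01.

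The members found at the cell surface or secreted are MATN2, SDC2 and CPQ. MATN2 encodes matrilin 2, an adaptor protein of filamentous networks in the extracellular matrix. It gave 0.25 on array 1, 0.30 on array 3 and −0.06 on array 4, while its spot on array 2 was marked as an outlier by the scanner software and was left out of the fit. The mean of 0.16 ± 0.19 (SD, n = 3; 95% interval −0.01 to 0.34) was the highest of the neighbours and was not called (limma adjusted p = 0.308). The outlier spot read −0.10, and with it the mean was 0.10 ± 0.21 (SD, n = 4). Without array 4 the value rested on arrays 1 and 3 alone, rose to 0.28 and was called (limma adjusted p = 0.0467). The signal of MATN2 also differed between arrays in both lines, with SB log2 levels of 12.80, 12.52 and 11.28 and SCt levels of 12.55, 12.22 and 11.34 on arrays 1, 3 and 4.

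SDC2 encodes syndecan 2, a heparan sulphate proteoglycan of mesenchymal cells in particular. Its 1 probe was not well above background in either line on any of the 4 arrays, with a signal 1.04 to 1.41 times the local background. Its ratios there were −0.08, 0.28, 0.14 and −0.09, which are ratios of values at background, and no level is given. CPQ, carboxypeptidase Q, is a secreted peptidase of plasma. It was the faintest neighbour that could be tested, 3.13 to 8.85 times its background, and gave −0.07, 0.13, 0.23 and 0.23. The mean was 0.13 ± 0.14 (SD, n = 4; 95% interval −0.01 to 0.27; limma adjusted p = 0.310), 109% of SCt, with array 1 the only one below 0.

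**Figure D2:**
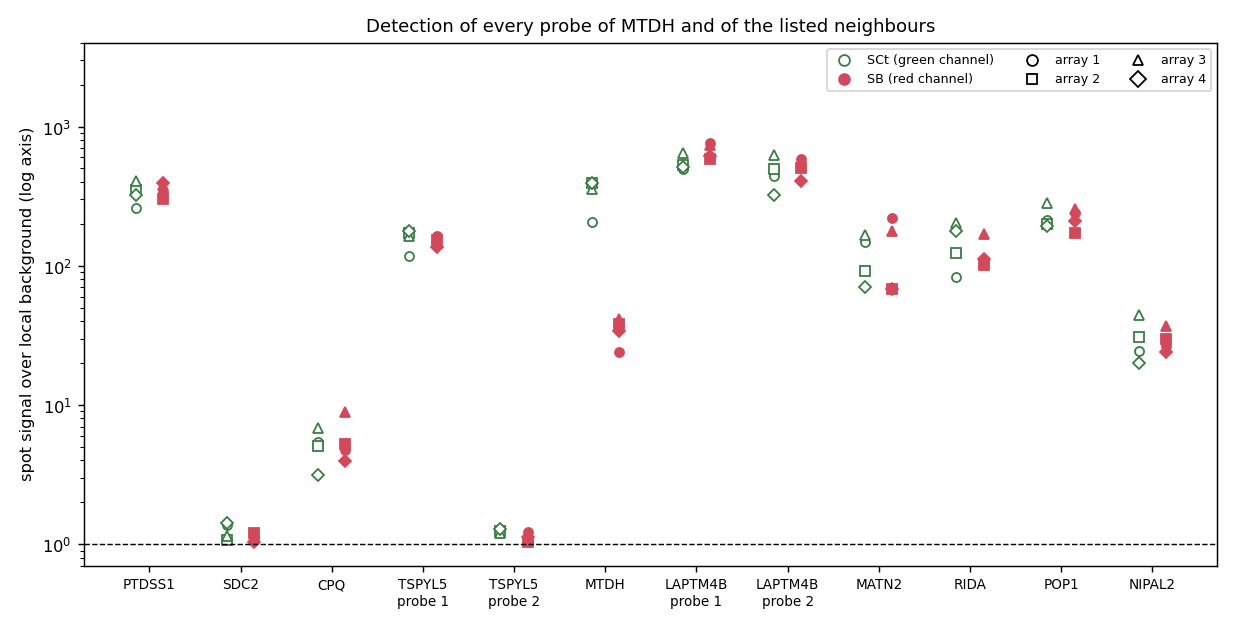
Spot signal over local background (log axis) for every probe of MTDH and of the 9 neighbours, with open green symbols for SCt, filled red symbols for SB and the symbol shape for the array. SDC2 and the second TSPYL5 probe lie between 1.04 and 1.41 in both lines, and MTDH falls from 205 to 390 in SCt to 24.0 to 41.2 in SB.

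The members that act inside the cell on nucleic acids, chromatin or metabolites are RIDA, POP1 and TSPYL5. RIDA is an enzyme that removes reactive imine intermediates of amino acid metabolism. Its values were 0.05, −0.12, −0.20 and −0.56, so the value on array 4 was far below that on array 1. The mean of −0.21 ± 0.26 (SD, n = 4) was the lowest of the neighbours, and its 95% interval of −0.39 to −0.02 was the only one of the 8 that did not include 0. The limma p of RIDA was 0.0311 before and 0.211 after adjustment. The SB level was 86.7% of SCt. The difference on array 4 went with a high SCt level, 12.66 beside 11.96 to 12.46 on the other arrays, and the SB level of 12.11 there was within the range of the other arrays, 11.97 to 12.26.

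POP1 is the largest protein subunit of RNase P and RNase MRP, the ribonucleoprotein enzymes that process precursor tRNA and ribosomal RNA. It was the steadiest neighbour, at −0.08, −0.06, −0.22 and −0.02, below 0 on all 4 arrays. The mean was −0.09 ± 0.09 (SD, n = 4; 95% interval −0.22 to 0.03; limma adjusted p = 0.416), 93.7% of SCt. TSPYL5, the gene next to MTDH towards lower coordinates, belongs to the TSPY and nucleosome assembly protein family. Its brighter probe gave −0.04, −0.05, −0.06 and −0.29, with a mean of −0.11 ± 0.12 (SD, n = 4; 95% interval −0.24 to 0.02; limma adjusted p = 0.372), 92.7% of SCt. Its second probe was not well above background in either line on any array.

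POP1 and TSPYL5 were the 2 neighbours with the same sign on all arrays, which held for 26.8% of all genes (6302 of 23485). The levels of the lines did not overlap for 0 of the 7 neighbours with values on all 4 arrays, where this was so for 2.26% of all such genes (524 of 23137).

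**Figure D3:**
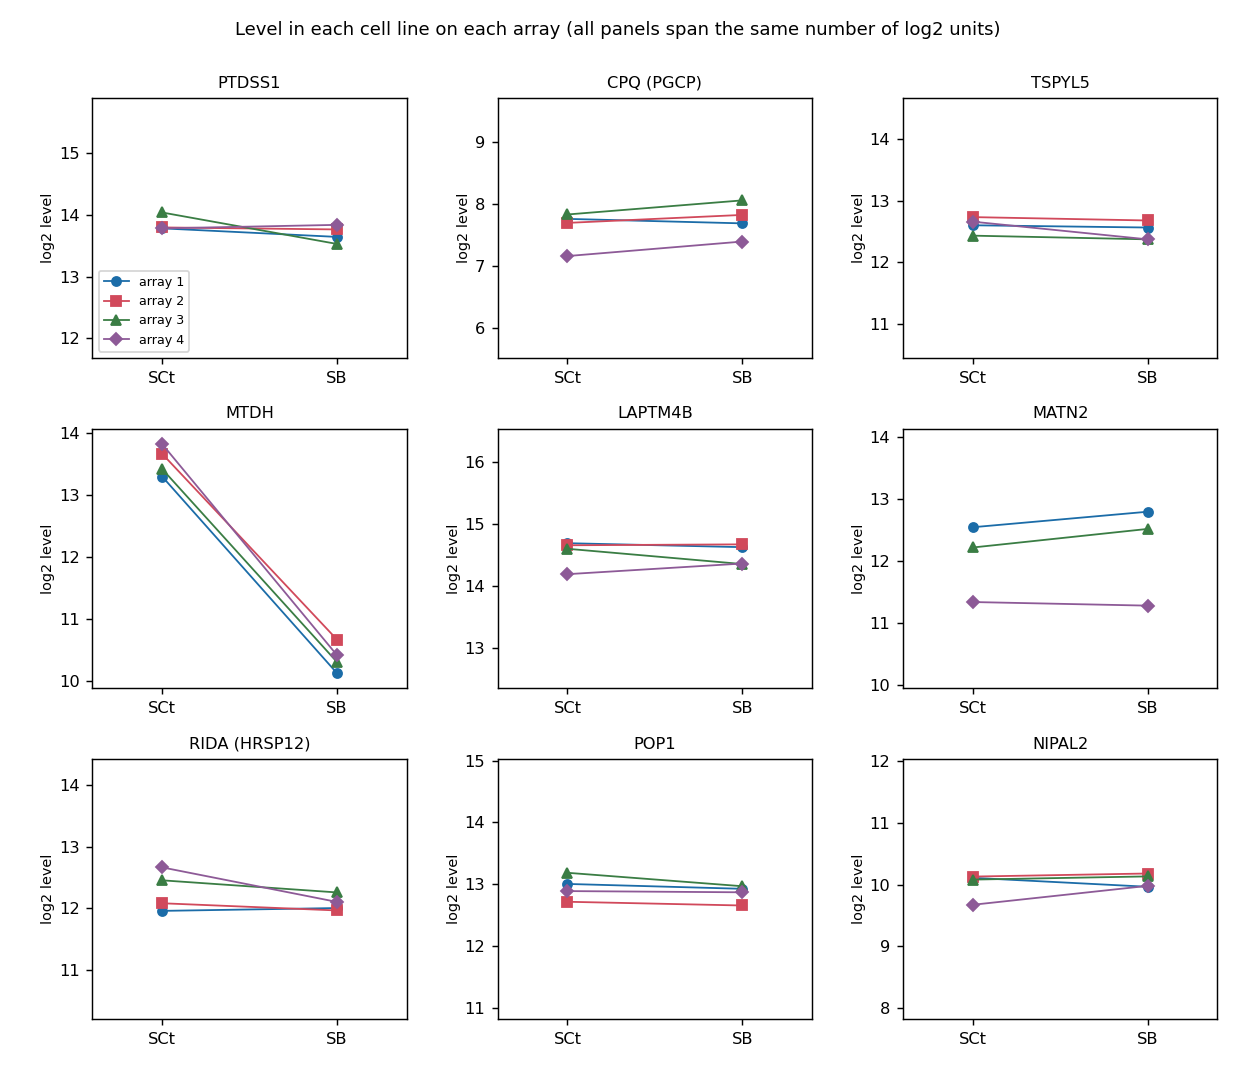
Log2 level of MTDH and its 8 measured neighbours in SCt and SB cells, with a line joining the values of each array and the same span of log2 units in every panel. MTDH drops from 13.30 to 13.83 in SCt to 10.12 to 10.66 in SB. The lines of the neighbours are much flatter, with the largest drops for RIDA on array 4 (−0.56) and PTDSS1 on array 3 (−0.51). For every neighbour with values on all 4 arrays, the ranges in both cell lines overlap.

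Ordered by their mean log2 ratio the neighbours ran RIDA, PTDSS1, TSPYL5, POP1, LAPTM4B, NIPAL2, CPQ and MATN2. The 95% intervals of all 7 adjacent pairs in this order overlapped. Of the 28 possible pairs, 2 had intervals that did not overlap. These were RIDA with CPQ and RIDA with MATN2, with differences of 0.34 and 0.37 in log2 ratio. The genes were read on the same arrays, and their differences array by array were not tested. Overlap of intervals, or its lack, therefore does not settle whether 2 genes differed. RIDA was above CPQ on array 1 (0.05 and −0.07) and below it on arrays 2 to 4. Whether this order is related to position was not tested. Towards lower coordinates 2 of 3 measured neighbours had a mean below 0 and a median of −0.11, and towards higher coordinates 3 of 5, with a median of −0.03.

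Array 4 held the highest or the lowest value of all 8 neighbours, the highest for 5 and the lowest for 3. Over all genes with a value on that array it was an extreme for 54.7%. Array 3 was an extreme for 4 of the neighbours and array 2 for 0 of 7, beside 56.4% and 38.6% of all genes. The values of the neighbours on array 4 thus lay to both sides of those on the other arrays, with no common direction.

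The wider neighbourhood was read by gene order alone, as the 30 protein-coding genes on each side of MTDH. Of these 60 genes 49 were measured and 4 were called (8.16%, beside 3.51% of all genes), 3 lower and 1 higher. The share over all genes counts each unmatched accession as a gene, while these 60 are all named genes. Among the named genes of chromosome 8, with MTDH left out, 5.71% were called. None of the 9 measured among the nearest 5 on each side was called by limma, where 2 had an unadjusted p under 0.05, beside 15 of the 49 and 18.1% of all genes. The mean log2 ratios of these 9 ran from −0.21 for RIDA to 0.17 for RPL30. The members of that inner group that were not listed above gave −0.17 ± 0.16 for MTERF3, a mitochondrial transcription factor (SD, n = 4; adjusted p = 0.190), 0.17 ± 0.32 for RPL30, a ribosomal protein (SD, n = 4; adjusted p = 0.374), and 0.05 ± 0.11 for ERICH5 (SD, n = 4), which was not called either.

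The called genes lay farther out, and all were far smaller in change than MTDH. PIP4P2, a phosphatase of phosphoinositides at the 30th position towards lower coordinates, had values of −0.47, −0.26, −0.55 and −0.78 and a mean of −0.51 ± 0.22 (SD, n = 4; limma adjusted p = 0.00388). Its neighbour OTUD6B, a deubiquitinating enzyme, gave −0.28, −0.29, −0.70 and −0.47, with a mean of −0.43 ± 0.20 (SD, n = 4; limma adjusted p = 0.00789). That was its brighter probe, and its second probe gave −0.09 ± 0.15 (SD, n = 4; limma adjusted p = 0.492), with a mean over both of −0.26. PLEKHF2, an endosomal protein 9 genes from MTDH on the same side, gave −0.11, −0.28, −0.51 and −0.44, with a mean of −0.33 ± 0.18 (SD, n = 4; limma adjusted p = 0.0227). OSR2, a zinc finger transcription factor 11 genes away on the other side, gave 0.17, 0.33, 0.20 and 0.25, with a mean of 0.24 ± 0.07 (SD, n = 4; limma adjusted p = 0.0395). By the brighter probe, all 4 had the same sign on every array, which was a condition for naming them here and so adds no support. The greatest fall among them was 1.43-fold.

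Without array 3 none of these 4 calls was kept, while 156 genes in place of 825 were called in all. The log2 ratios were then −0.50 for PIP4P2 (adjusted p = 0.0810), −0.35 for OTUD6B (0.0769), −0.28 for PLEKHF2 (0.183) and 0.25 for OSR2 (0.144), so those of PIP4P2 and OSR2 were about as large as with all arrays. PLEKHF2 was also not called without array 2 (0.0714), with the software's ratios (0.0736) or with the series table (0.0805). OSR2 was also not called without array 1 (0.0734), without array 2 (0.216) or with normexp without an offset (0.0658). Without array 4, 8 of the 49 genes of the wider region were called, and 1557 genes in all (6.63%). Chromosome 8 as a whole, with MTDH left out, had 560 measured genes, of which 32 were called (5.71%), 25 lower and 7 higher, with a median log2 ratio of −0.01. The share called ran from 1.98% to 7.62% over the chromosomes and that of chromosome 8 was the 4th highest.

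**Figure D4:**
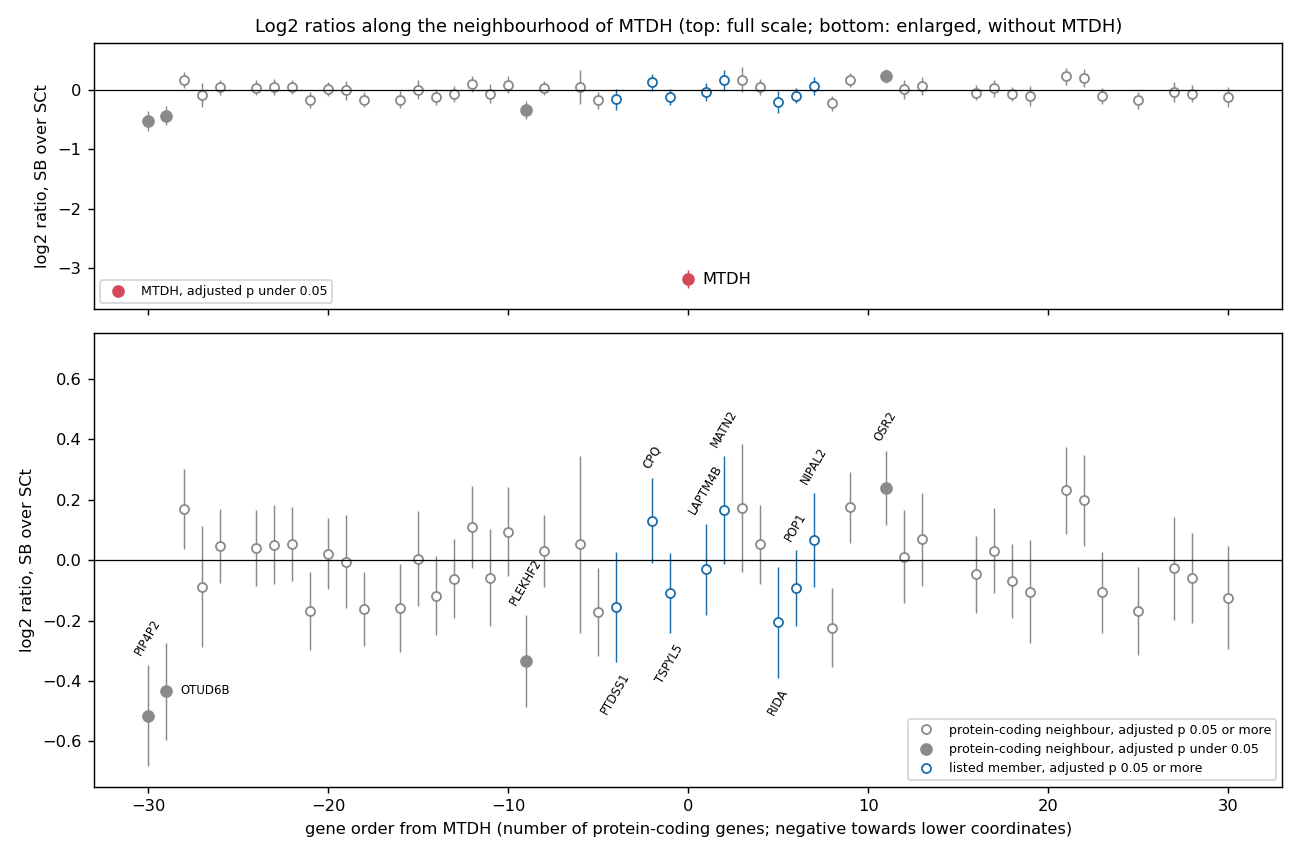
Log2 ratio of SB over SCt with limma's 95% interval for the measured genes among the 30 protein-coding genes on each side of MTDH, placed by gene order, at full scale above and enlarged without MTDH below. Filled points have an adjusted p under 0.05: MTDH at −3.18 and, apart from it, PIP4P2, OTUD6B, PLEKHF2 and OSR2, which lie at least 9 genes away.

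Relatives and partners of the neighbours that lie elsewhere in the genome could be read in the same way. Of 33 such genes, all of them measured, 1 was called lower and 0 higher by limma, and 9 had an unadjusted p under 0.05, beside 3.51% called and 18.1% at that p over all genes. The called gene was SDC4, syndecan 4, a heparan sulphate proteoglycan and paralog of the undetected SDC2. It gave −0.48, −0.52, −0.60 and −0.19, with a mean of −0.45 ± 0.18 (SD, n = 4; limma adjusted p = 0.00520), and it was not called without array 3 (−0.40, adjusted p = 0.0842) or with median centring in place of loess (−0.19, adjusted p = 0.0526). The other measured syndecans gave −0.15 ± 0.22 for SDC1 and 0.02 ± 0.08 for SDC3 (SD, n = 4).

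The remaining families held no called gene. The 11 subunits of RNase P and RNase MRP, POP1 included, had mean log2 ratios from −0.13 to 0.05 with a median of −0.03. The 7 genes of phosphatidylserine synthesis and decarboxylation, PTDSS1 among them, ran from −0.34 to 0.20. The matrilins ran from −0.21 to 0.16, the LAPTM family from −0.10 to −0.03, the TSPYL family from −0.11 to 0.12, and the NIPA family from −0.23 to 0.18.

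The directions of the small ratios depended on how the arrays were scaled. With each array centred on its median in place of loess, which moved the median of all genes from 0.01 to 0.07, all of the neighbours but CPQ moved up. PTDSS1 (0.06), TSPYL5 (0.04), POP1 (0.07) and LAPTM4B (0.24) then had a positive mean, and LAPTM4B (limma adjusted p = 0.0199) and MATN2 (0.32, adjusted p = 0.0267) were called. That scaling called 7501 genes in all (31.9%), 2625 lower and 4876 higher, beside 530 lower and 295 higher with loess. RIDA stayed below 0 in all 16 alternative settings, between −0.29 and −0.08, and was called in none (lowest adjusted p 0.116). MATN2 and CPQ stayed above 0 in all 16. MTDH had a mean between −3.24 and −3.06 in every setting.

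**Figure D5:**
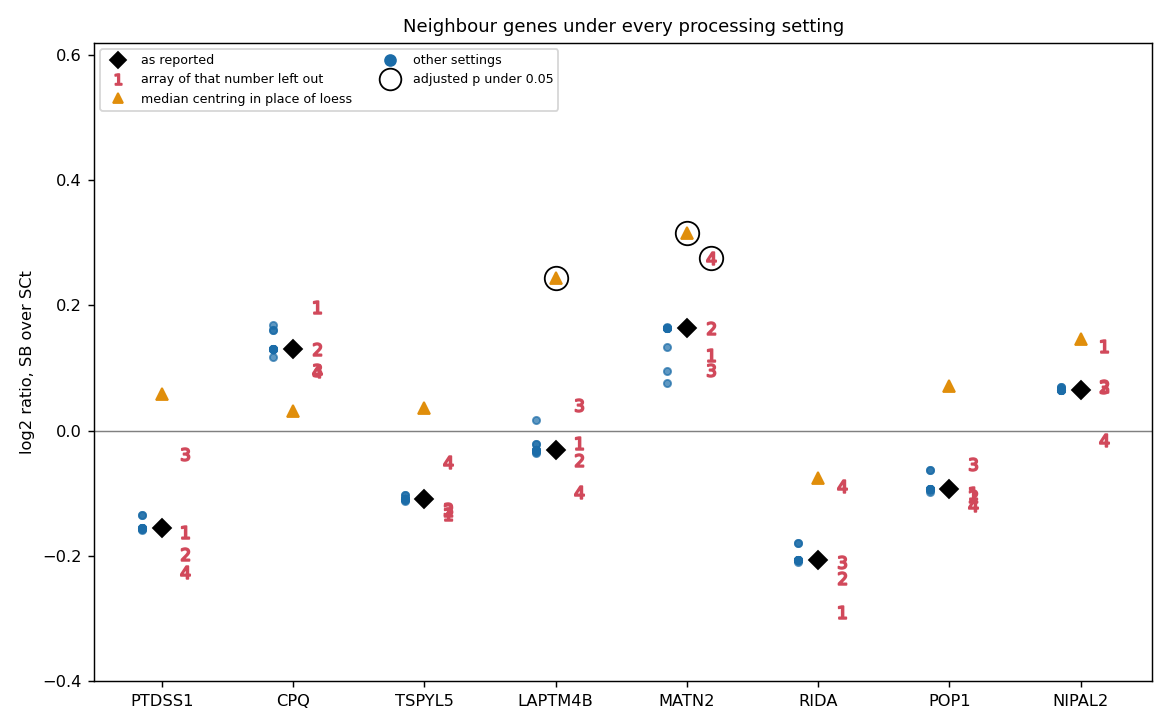
Mean log2 ratio of SB over SCt for the 8 measured neighbours as reported (black diamonds), with 1 array left out (red digits give its number), with median centring in place of loess (orange triangles) and under the other settings (blue points). Rings mark an adjusted p under 0.05, which occurred for LAPTM4B and MATN2 under median centring and for MATN2 without array 4.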

How the data were processed

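The authors deposited scanner output for every array, in which the red and green readings of a spot are unnormalized median intensities, each with a local background, beside the log10 ratio that the software computes. The submitters' processing notes name Agilent Feature Extraction 10.5.1.1. A series table of log2 ratios, also deposited, served as an alternative. Median intensities were used because the files hold no means.

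In R 4.3.3 with limma 3.58.1, background was corrected by normexp (offset 50) on all 44495 spots, the 1377 control spots and outlier spots (1.89% to 2.71% per array) were removed, and log2 ratios were normalized by loess within arrays. No spot was saturated. Levels of each channel followed from Aquantile after loess. A probe was kept if all 4 arrays marked it as well above background in SB or all 4 in SCt, and if at least 2 gave a value (28507 probes). Ratios were tested against 0 with lmFit and eBayes, with Benjamini-Hochberg adjustment over all kept probes, and a gene was read by its brightest kept probe. Steps were tested on simulated data, where changes came out somewhat smaller than those put in and limma's intervals held the true change less often than their nominal level. The number of arrays limits the precision, and the labels do not say how many clones or cultures they came from.

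Gene names and gene order came from RefSeq (GRCh38.p14), to which 24826 of 34127 probes were matched by accession. The accessions of the other 9301 probes were each counted as a gene of their own, so the shares over all genes include them. The array was designed on an earlier build, so no positions are given. Genes named were MTDH, the 9 neighbours, measured genes among the 5 nearest on each side, and called genes among the 30 on each side with 1 sign on all arrays. SDC1, SDC3 and SDC4 were named after their values were seen. Members and lists were chosen with earlier results of these data known. Alternatives were other background corrections, scalings, filters and probe rules, the deposited ratios, the methods' t-test and leaving out each array.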

Additional observations from a re-analysis of the deposited data

Results flagged for a closer look

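TSPYL5 had 1 array far from the others. Its log2 ratio was −0.286 on array 4 and between −0.06 and −0.04 on arrays 1 to 3, a gap of 0.908 of its whole range, which is above Dixon's 95% limit for 4 values. Of the 17 sets of 4 values examined, this was the 1 that passed, and chance marks about 1 in 20.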

How the results depend on the processing

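With the dim-probe filter, background correction, deposited ratios, outlier spots or moderation changed, 0 of the neighbours of MTDH was called. Over all genes, 0% to 4.31% were called under these settings. Median centring in place of loess gave 2 called neighbours, 3 called probes of them, and a median log2 ratio over them of 0.0652 (−0.0625 with loess). It gave 13 called genes among the 49 measured of the 30 on each side of MTDH, beside 31.9% of all genes. It turned PTDSS1 to 0.0590, TSPYL5 to 0.0360, LAPTM4B to 0.244 and POP1 to 0.0715. The mean over both probes turned LAPTM4B to 0.0167. Under the methods' t-test MTDH, at −3.18, had an adjusted p of 0.144 and 0 of the 49 measured genes passed. Leaving out 1 array at a time gave 0 to 1 called neighbours and 0 to 1 of their probes, with a median of −0.0758 to 0.00138. It gave 0 to 8 called genes among the 30 on each side. Over all genes, the share called was then 0.665% (without array 3) to 6.63% (without array 4). LAPTM4B ranged from −0.0988 (without array 4) to 0.0409 (without array 3) and NIPAL2 from −0.0144 (without array 4) to 0.136 (without array 1). Relatives elsewhere in the genome, alternatives chosen after seeing the data, held 1 called gene of 33 (SDC4). They held 8 under median centring (SDC4 not among them), and 0 (without array 3) to 3 (without array 4). These counts stand beside the shares over all genes given above. The cause of these changes was not tested. Both lines shared each array, so the test of ratios against 0 was already paired by array, and with a single group no further block could be fitted. Faint signal limits CPQ and SDC2 most.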
